A study of Mus musculus with 9 samples.

Results

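The 10 genes described here carry glucose through glycolysis or regulate that route under low oxygen: Hif1a, Slc2a1, Hk2, Pfkp, Pfkfb3, Aldoa, Pgk1, Eno1, Pkm and Ldha. They were taken by gene symbol from the deposited gene table, where they stand on 11 of 32671 gene identifiers because the symbol Aldoa occurs on 2 of them. All 11 identifiers passed the filter on low counts, as did 20794 genes in all. The data are poly(A) RNA sequencing of whole lung from wild-type C57BL/6 mice, collected on day 21, with 3 libraries in each of 3 groups. The group called LNP here was challenged with bleomycin and then given inhaled lipid nanoparticles (mCas9/gSting@DOPS LNPs in the labels), which carry the nuclease Cas9 and a guide against the Sting gene. The bleomycin group was given the drug alone, which damages DNA and provokes lung scarring, without particles. The control group received saline. Since no lungs with guide-free particles were analysed here, what the guide did and what the particle did cannot be told apart. Ages are not given in the labels, and nothing there states that the samples of a group came from separate animals, so the p-values cover the spread between these samples, which may be technical.

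Glycolysis splits glucose into pyruvate in the cytosol. Glucose enters through facilitative transporters such as the one encoded by Slc2a1, hexokinases trap it as a phosphate, phosphofructokinases commit it to the pathway, and the later enzymes from aldolase to pyruvate kinase recover the ATP. Lactate dehydrogenase then turns pyruvate into lactate and restores the NAD+ that the pathway needs. Hypoxia-inducible factor (HIF) pairs an oxygen-sensitive alpha subunit, encoded by Hif1a or Epas1, with a stable beta subunit encoded by Arnt. At normal oxygen the alpha subunits are hydroxylated by the Egln enzymes and destroyed, so that HIF activity is set largely on the protein and not on the mRNA that was measured here. HIF is known to bind the core sequence RCGTG near many glycolysis genes, and activated macrophages and fibroblasts are known to run glycolysis at a high rate.

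Total gene counts lay between 56047830 and 69404903 per library. LNP replicate 3 was unlike the rest in its tissue markers. Its 12 skeletal muscle markers summed to 8556 CPM (gene counts scaled to a common library size with TMM factors), against 12.4 and 12.8 CPM in LNP replicates 1 and 2, and its 11 squamous epithelium markers summed to 1941 CPM, against 51.9 and 45.6 CPM. Muscle is rich in several of the enzymes described here, so each result is also given without that library where it differs. Whole-lung RNA cannot separate a change in the number of cells of a type from a change in RNA per cell.

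After bleomycin, 6 of the 10 genes rose: Eno1, Hif1a, Slc2a1, Pkm, Pgk1 and Ldha. Their increases ran from 1.93-fold for Ldha to 4.31-fold for Eno1. None of the 10 fell. Across all genes tested, 33.7% were called in that comparison and 15.2% were called higher, at an adjusted p under 0.05 in edgeR's quasi-likelihood test. The median log2 fold change was 1.14 over the 10 genes and -0.05 over all genes tested. In LNP lung, none of the 10 was called different from bleomycin lung with all libraries in the fit, where 6.16% of all genes were, and 2, Eno1 and Ldha, were called higher than in control lung, against 4.95% of all genes. Without LNP replicate 3, 6 of the 10 were called lower in LNP than in bleomycin lung, against 10.7% of all genes.

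**Figure D1:**
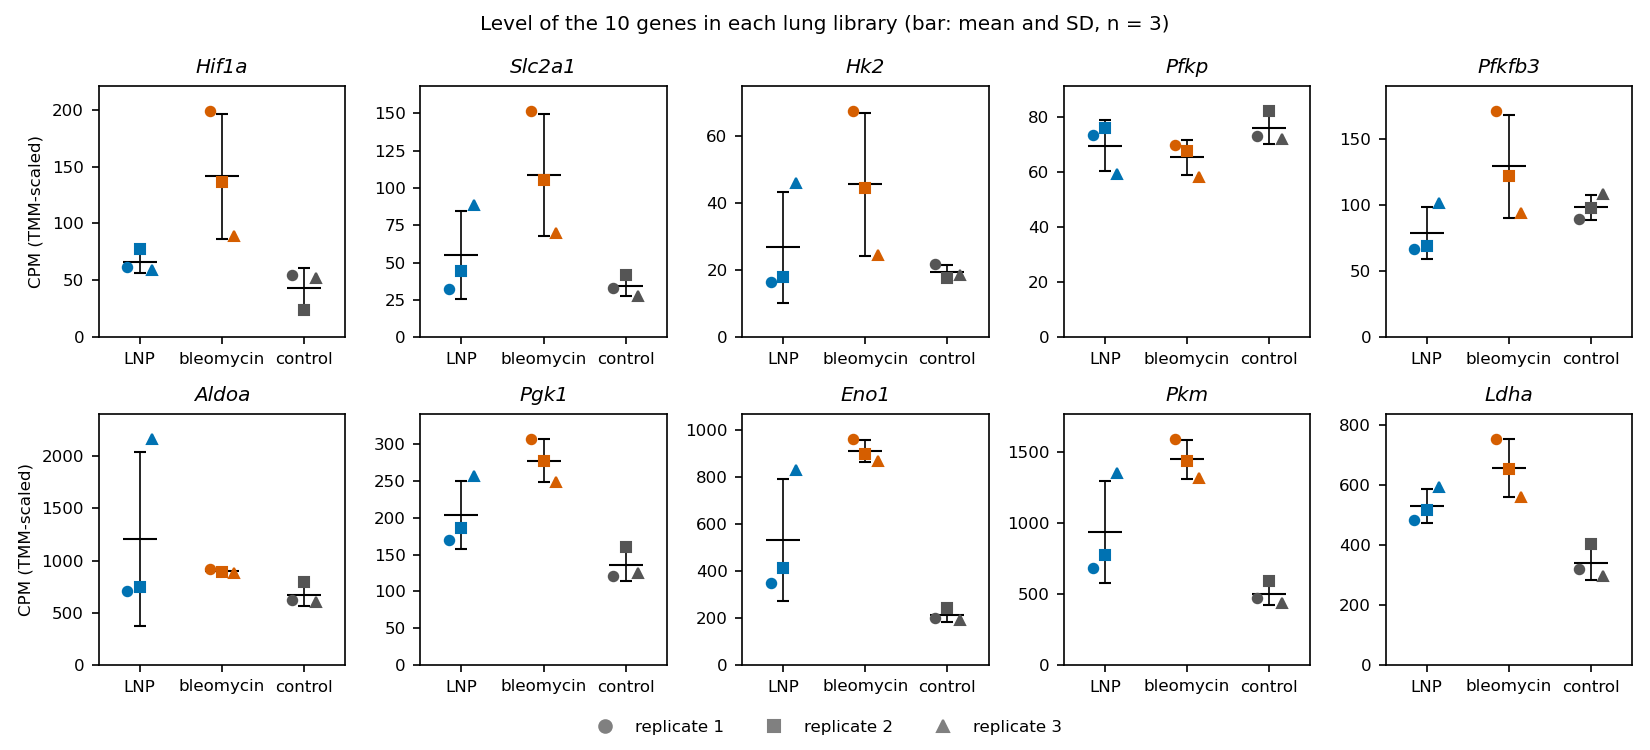
Level of each of the 10 genes in every library, in CPM after TMM scaling on a linear axis starting at 0, for LNP, bleomycin and control lung. Each symbol is 1 library, its shape gives the replicate number, and the black bar with whiskers is the mean with SD of 3 libraries. The triangle for LNP replicate 3 lies above the other LNP libraries in 8 panels, most of all for Aldoa at 2165 CPM.

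Hif1a (ENSMUSG00000021109) encodes the oxygen-sensitive subunit that gives HIF its regulation. In the coordinates of the deposited table, for which no source used here names the genome build, it lies on chromosome 12 from 73948149 to 73994304 on the plus strand. Its level was 61.7, 77.3 and 59.1 CPM in LNP libraries and 199, 136 and 89.4 CPM in bleomycin libraries, against 54.6, 23.7 and 51.7 CPM in control libraries. Every bleomycin library lay above every control library, although the bleomycin libraries themselves spread over more than a doubling. The rise was 1.71 ± 0.35 on the log2 scale (SE; 3.26-fold; adjusted p = 0.0053 in edgeR's quasi-likelihood test). All 3 LNP libraries lay between the other groups with no overlap on either side.

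Slc2a1 (ENSMUSG00000028645, chromosome 4, 118965908 to 118995180, plus strand) encodes GLUT1, the widely expressed glucose transporter. It had 32.5, 44.6 and 88.6 CPM in LNP libraries and 151, 105 and 69.8 CPM in bleomycin libraries, against 33.1, 41.4 and 27.9 CPM in control libraries. Again no bleomycin library overlapped a control library, and the rise was 3.19-fold (log2 fold change 1.67 ± 0.38 SE, adjusted p = 0.0091 in edgeR's test). LNP replicates 1 and 2 were at about the control level, whereas LNP replicate 3 lay inside the bleomycin range.

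The early kinase genes Hk2, Pfkp and Pfkfb3 were not called after bleomycin in the fit of all libraries. Hk2 (ENSMUSG00000000628, chromosome 6, 82702006 to 82751435, minus strand) encodes hexokinase 2, the inducible form that binds mitochondria. It had 16.5, 18.1 and 46.0 CPM in LNP libraries and 67.5, 44.7 and 24.6 CPM in bleomycin libraries, against 21.9, 17.7 and 18.5 CPM in control libraries, a difference of 1.24 ± 0.43 on the log2 scale (SE) that narrowly missed the threshold (adjusted p = 0.051 in edgeR's test). All bleomycin libraries were above all control libraries, yet the lowest exceeded the highest control by little. With LNP replicate 3 removed from the shared fit, the adjusted p of the same difference was 0.0062.

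Pfkp (ENSMUSG00000021196, chromosome 13, 6629804 to 6698813, minus strand), the platelet-type phosphofructokinase, was the gene of the 10 that moved least. It had 73.8, 76.2 and 59.2 CPM in LNP libraries and 70.1, 67.8 and 58.3 CPM in bleomycin libraries, against 73.4, 82.3 and 72.2 CPM in control libraries. The bleomycin libraries lay just below the control libraries without overlap, and the difference of -0.22 ± 0.14 on the log2 scale (SE) did not pass the test (adjusted p = 0.25, edgeR). Its 95% interval of -0.52 to 0.09 leaves room for a modest decrease and for almost no increase.

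Pfkfb3 (ENSMUSG00000026773, chromosome 2, 11476244 to 11558888, minus strand) makes fructose 2,6-bisphosphate, the strongest activator of phosphofructokinase. It had 66.5, 68.8 and 101 CPM in LNP libraries and 171, 122 and 94.2 CPM in bleomycin libraries, against 89.4, 97.3 and 108 CPM in control libraries. The bleomycin and control ranges overlapped, and the difference of 0.39 ± 0.23 on the log2 scale (SE) did not pass the test (adjusted p = 0.22, edgeR). LNP replicates 1 and 2 were below every bleomycin and every control library, and LNP replicate 3 lay within both ranges.

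Aldolase A is encoded by Aldoa (ENSMUSG00000030695, chromosome 7, 126394406 to 126399923, minus strand) and splits the 6-carbon sugar; it is the main aldolase of muscle. The gene had 707, 750 and 2165 CPM in LNP libraries and 917, 889 and 878 CPM in bleomycin libraries, against 622, 792 and 602 CPM in control libraries. The bleomycin and control libraries did not overlap, but the difference of 0.41 ± 0.37 on the log2 scale (SE) was not called (adjusted p = 0.42, edgeR). LNP replicate 3 set the spread in that fit: it was far above every other library, and without it the bleomycin difference was called (log2 fold change 0.45 ± 0.12 SE, adjusted p = 0.014). The other identifier with this symbol, ENSMUSG00000114515, directly adjoins the first on the same strand and stayed at or under 0.67 CPM in every library, so it adds almost nothing.

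Pgk1, Eno1, Pkm and Ldha, which act after aldolase, were each called higher after bleomycin. Pgk1 (ENSMUSG00000062070, chromosome X, 105230706 to 105247305, plus strand) encodes phosphoglycerate kinase, the first step that yields ATP. It had 170, 186 and 257 CPM in LNP libraries and 307, 277 and 249 CPM in bleomycin libraries, against 120, 160 and 125 CPM in control libraries. Bleomycin and control libraries were far apart, for a rise of 2.05-fold (log2 fold change 1.04 ± 0.19 SE, adjusted p = 0.0028 in edgeR's test). All 3 LNP libraries were above every control library, and LNP replicate 3 lay inside the bleomycin range.

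Eno1 (ENSMUSG00000063524, chromosome 4, 150321178 to 150333336, plus strand), the enolase of most tissues, rose the most of the 10. It had 350, 414 and 829 CPM in LNP libraries and 961, 898 and 867 CPM in bleomycin libraries, against 201, 242 and 190 CPM in control libraries. Each bleomycin library held over 3 times the level of any control library, and the rise was 4.31-fold (log2 fold change 2.11 ± 0.29 SE, adjusted p = 0.00082 in edgeR's test). All 3 LNP libraries lay between the other groups.

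Pkm (ENSMUSG00000032294, chromosome 9, 59563651 to 59586658, plus strand) encodes the pyruvate kinase of all tissues except liver and red cells. It had 685, 777 and 1352 CPM in LNP libraries and 1596, 1439 and 1322 CPM in bleomycin libraries, against 475, 591 and 439 CPM in control libraries. Bleomycin and control libraries were well separated and the rise was 2.90-fold (log2 fold change 1.53 ± 0.25 SE, adjusted p = 0.0018 in edgeR's test). LNP replicates 1 and 2 lay between the groups and LNP replicate 3 inside the bleomycin range.

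Ldha (ENSMUSG00000063229, chromosome 7, 46490899 to 46505051, plus strand) encodes the lactate dehydrogenase subunit that favours lactate formation. It had 482, 515 and 594 CPM in LNP libraries and 753, 653 and 560 CPM in bleomycin libraries, against 321, 401 and 295 CPM in control libraries. The rise was 1.93-fold with no overlap (log2 fold change 0.95 ± 0.17 SE, adjusted p = 0.0027 in edgeR's test). All LNP libraries were above every control library, and the highest of them lay within the bleomycin range.

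Counted by overlap alone, 8 of the 10 genes were higher in every bleomycin library than in every control library and 1, Pfkp, was lower. The shares over all genes tested were 25.9% and 29.6%, so a gene without overlap was common in this comparison and the Pfkp ordering is near that background. The 6 called rises were called in each of 19 alternative settings, including each library left out in turn. Hk2 was called in 6 of those 19 settings and Aldoa in 2.

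**Figure D2:**
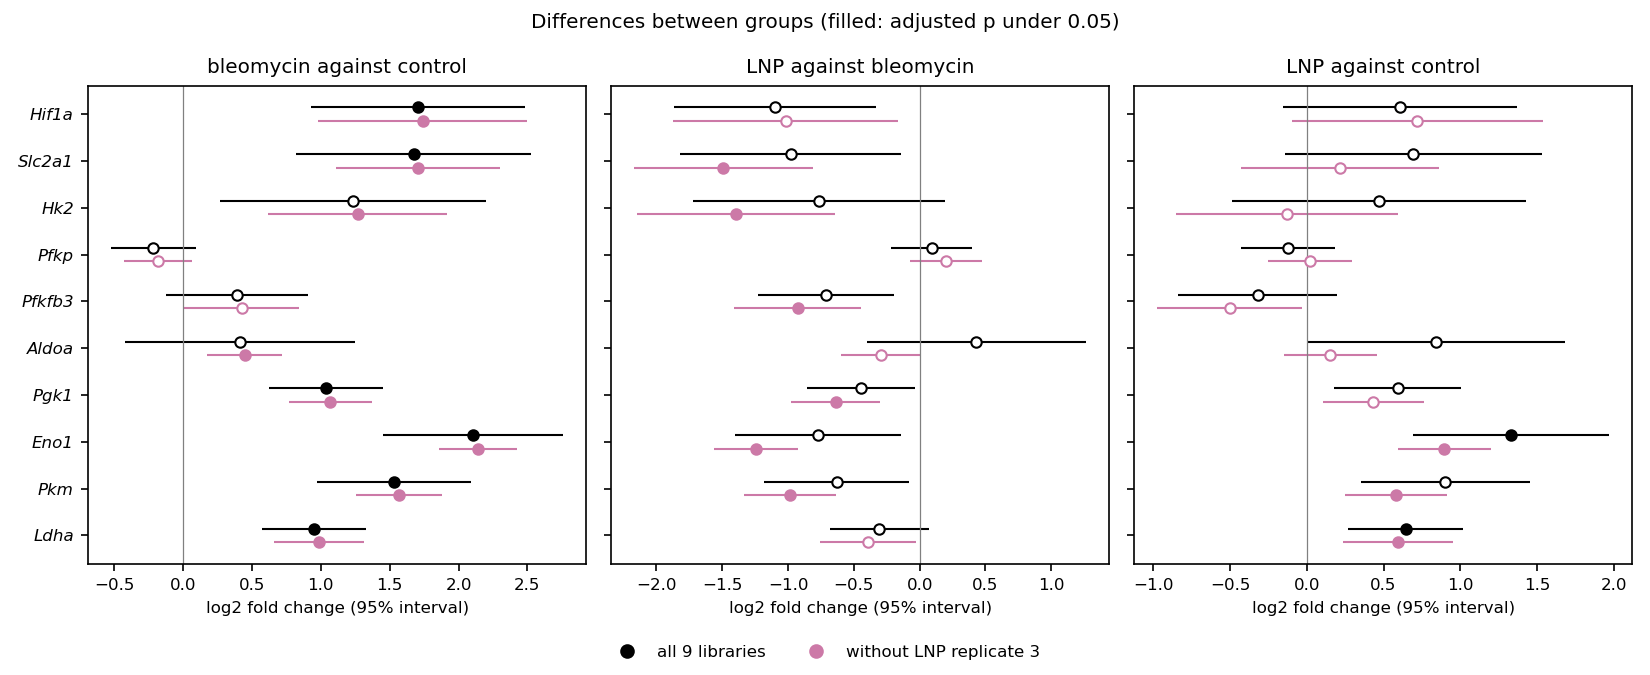
Log2 fold change with its 95% interval for each gene in the 3 comparisons, from edgeR's quasi-likelihood fit of all 9 libraries (black) and of the 8 libraries without LNP replicate 3 (pink). A filled symbol is a gene called at an adjusted p under 0.05, and in the LNP against bleomycin panel 0 genes are filled in black and 6 in pink.

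The comparison of LNP with bleomycin lung asks how far the genes differ once the particles were given. Hif1a and Eno1 were lower in every LNP library than in every bleomycin library, 2 of 10 genes against 14.5% of all genes tested. In edgeR's quasi-likelihood test 0 of the 10 genes were called, whereas 6.16% of all genes were, 1.87% as lower. At an unadjusted p below 0.05 the same test picked 6 of the 10. The share of all genes below that p is not given here, so the count has no background beside it. With DESeq2, 4 of the 10 were called lower, Hif1a, Pfkfb3, Slc2a1 and Eno1, against 5.30% of all genes it tested. The fitted differences with all libraries were -1.10 ± 0.34 for Hif1a (adjusted p = 0.087), -0.98 ± 0.38 for Slc2a1 (adjusted p = 0.14) and -0.77 ± 0.28 for Eno1 (adjusted p = 0.12) on the log2 scale with SE. The median over the 10 genes was -0.67, beside 0.04 over all genes tested.

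The picture was different for 6 genes without LNP replicate 3: they were then called lower in LNP lung, against 10.7% of all genes called lower in the same fit. Slc2a1 fell by 1.49 ± 0.30 on the log2 scale (SE, adjusted p = 0.0065), Hk2 by 1.39 ± 0.34 (adjusted p = 0.014) and Eno1 by 1.25 ± 0.14 (adjusted p = 0.00034), all in edgeR's test. Pkm fell by 0.99 ± 0.16 (adjusted p = 0.0018), Pfkfb3 by 0.93 ± 0.22 (adjusted p = 0.012) and Pgk1 by 0.64 ± 0.15 (adjusted p = 0.014). These calls rest on 2 LNP libraries. Hif1a was no more certain in that fit (-1.02 ± 0.38, adjusted p = 0.080), and it was the 1 gene called when control replicate 2 was left out instead. For Aldoa the sign of the difference itself turned: it was 0.43 with all libraries and -0.29 without LNP replicate 3, and neither value passed the test.

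LNP replicate 3 was the highest LNP library for 8 of the 10 genes, all but Hif1a and Pfkp. Beside those levels it held muscle forms of the same enzymes: Eno3, the muscle enolase, was at 243 CPM, against 14.0 and 12.6 CPM in LNP replicates 1 and 2, and Pfkm, the muscle phosphofructokinase, was at 114 CPM, against 32.0 and 31.1 CPM. Its monocyte-derived macrophage markers also summed higher, to 11436 CPM against 4254 and 6325 CPM. The part of either in the levels of the 10 genes was not tested.

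Against control lung, the LNP group asks what remained higher than in saline-treated animals. Eno1 stood 2.52-fold above control (log2 fold change 1.33 ± 0.29 SE, adjusted p = 0.020) and Ldha 1.56-fold (0.65 ± 0.17, adjusted p = 0.045) in edgeR's quasi-likelihood test. These 2 of 10 genes compare with 4.95% of all genes called higher. Hif1a, Pgk1, Eno1, Pkm and Ldha were higher in every LNP library than in every control library, 5 of 10 against 13.7% of all genes. Pkm (0.90 ± 0.25, adjusted p = 0.053) and Pgk1 (0.59 ± 0.18, adjusted p = 0.082) lay close to the threshold, and no gene of the 10 was called lower. Without LNP replicate 3, Eno1 (0.90 ± 0.14, adjusted p = 0.0027), Ldha (0.59 ± 0.16, adjusted p = 0.042) and Pkm (0.58 ± 0.15, adjusted p = 0.035) were called, against 6.41% of all genes. The calls were sensitive to single libraries: 1 gene was called without LNP replicate 2 or without any 1 of the bleomycin replicates, and 0 without control replicate 1 or control replicate 3. Both comparisons of LNP lung share its 3 libraries, and each shares a group with the comparison of bleomycin and control.

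Pkm makes 2 pyruvate kinases from 1 gene by choosing between a pair of neighbouring exons of equal length. The upstream exon gives the M1 form of adult muscle and brain, and the downstream exon gives the M2 form of proliferating and embryonic tissue, which is open to regulation. Both exons are shown because the deposited transcript counts separate them. They are 167 bases long in the GENCODE annotation of GRCm38, lie on the plus strand at chr9:59675029-59675195 for M1 and chr9:59675568-59675734 for M2, and match at 103 positions (61.7%). Capitals mark the positions at which the 2 exons differ.
Pkm M1 exon: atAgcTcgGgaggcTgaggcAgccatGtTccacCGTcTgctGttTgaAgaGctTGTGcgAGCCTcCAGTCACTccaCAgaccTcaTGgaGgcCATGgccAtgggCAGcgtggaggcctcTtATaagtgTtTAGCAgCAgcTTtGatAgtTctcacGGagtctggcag
Pkm M2 exon: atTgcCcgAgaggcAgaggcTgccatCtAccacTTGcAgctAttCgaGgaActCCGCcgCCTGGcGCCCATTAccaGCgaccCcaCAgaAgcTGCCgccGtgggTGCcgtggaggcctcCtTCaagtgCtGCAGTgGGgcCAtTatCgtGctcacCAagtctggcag

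The transcript with the M2 exon, ENSMUST00000034834, held 82.5%, 82.9% and 83.0% of Pkm counts in LNP libraries and 89.1%, 91.8% and 90.8% in bleomycin libraries, against 79.1%, 78.9% and 77.8% in control libraries. The transcript with the M1 exon, ENSMUST00000163694, held 17.3%, 17.0% and 16.7% in LNP libraries and 10.7%, 8.06% and 9.00% in bleomycin libraries, against 20.6%, 20.8% and 21.9% in control libraries. The M2 share was higher in every bleomycin library than in any control library, by 12.0 percentage points on average (exact two-sided permutation p = 0.1, the smallest that 3 against 3 libraries allow).

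The LNP libraries formed a band narrower than 1 percentage point that lay between the other groups without overlap. Their M2 share differed by -7.74 points from bleomycin and by 4.23 points from control on average (exact permutation p = 0.1 in each comparison). LNP replicate 3, which stood apart in so many levels, did not stand apart in this share. In amount, the M2 transcript averaged 777 ± 301 CPM in LNP libraries and 1314 ± 111 CPM in bleomycin libraries, against 394 ± 65 CPM in control libraries (SD, n = 3 each), and the ratio of bleomycin to control was 3.33. The M1 transcript averaged 159 ± 58 CPM in LNP libraries and 136 ± 31 CPM in bleomycin libraries, against 106 ± 15 CPM in control libraries, and the bleomycin to control ratio was 1.28 with an exact permutation p of 0.3. LNP replicate 3 raised both LNP means: M2 was at 566, 644 and 1122 CPM and M1 at 119, 132 and 225 CPM in LNP replicates 1, 2 and 3. For M1, LNP replicates 1 and 2 lay within the bleomycin range of 116 to 172 CPM and LNP replicate 3 above it. No source used here says how reads were divided between transcripts, and these transcripts also differ at their ends.

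Among the other genes, Hk2 has only 1 transcript in the deposited counts, so its share was fixed in advance. For Pgk1, Eno1 and Slc2a1, 1 transcript carried nearly all counts, with at least 93.7% in every library. Pfkfb3 was the opposite case. Its transcript ENSMUST00000114846 held 70.0%, 26.8% and 95.3% of the counts in LNP libraries, 12.1%, 73.5% and 75.3% in bleomycin libraries and 63.9%, 39.4% and 20.3% in control libraries. The shares varied as much within a group as between groups, so no difference in Pfkfb3 transcripts could be shown.

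**Figure D3:**
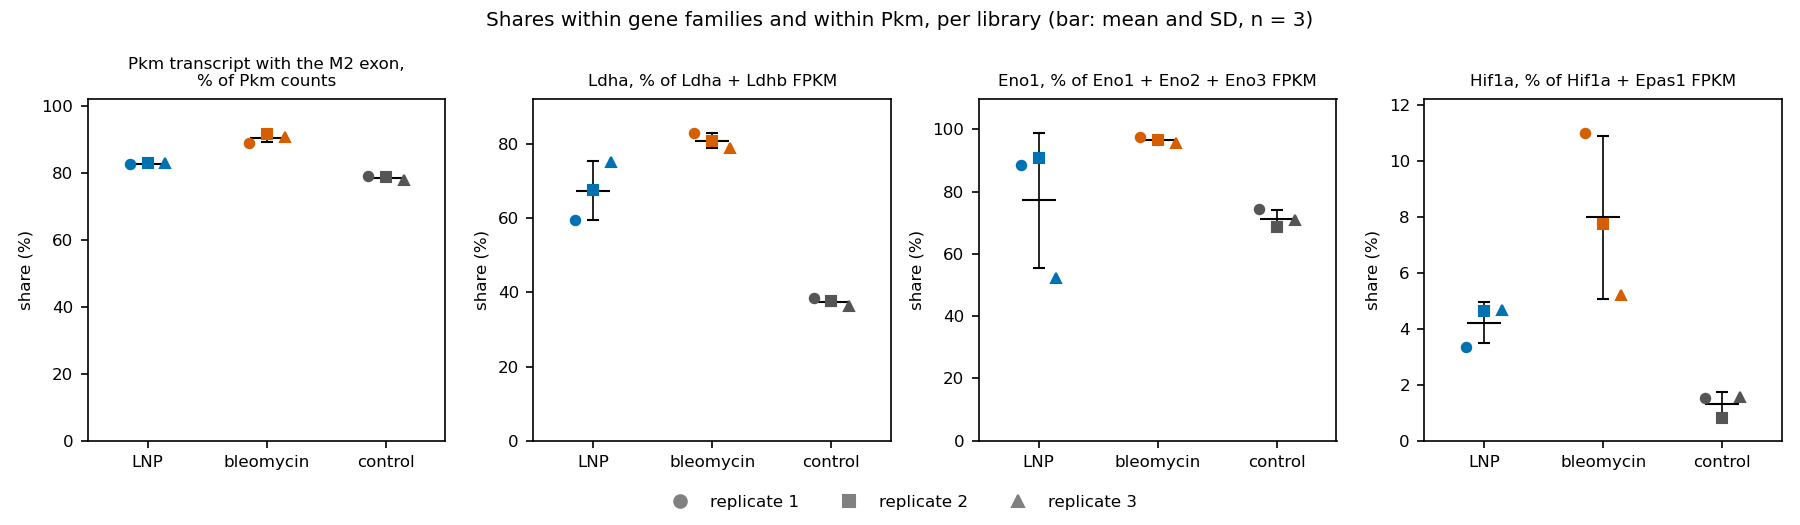
Share in percent of the M2-exon transcript in Pkm counts, of Ldha in Ldha plus Ldhb, of Eno1 in the 3 enolases and of Hif1a in Hif1a plus Epas1 (the last 3 from FPKM), per library. Symbols are libraries and bars are mean with SD of 3; LNP libraries lie between bleomycin and control in the Pkm, Ldha and Hif1a panels, and LNP replicate 3 drops to 52.3% in the enolase panel.

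Levels per length, in the authors' FPKM (fragments scaled to transcript length and library depth), allow the genes to be set in order. In control lung Aldoa led with a mean level of 212 FPKM, followed by Ldha at 93.8, Pkm at 91.9, Pgk1 at 55.3 and Eno1 at 35.9 FPKM. Pfkfb3 (12.0), Slc2a1 (8.91), Hif1a (6.83), Pfkp (5.20) and Hk2 (2.99 FPKM) were far lower. Of these neighbours, the ranges of Ldha and Pkm, of Slc2a1 and Hif1a, and of Hif1a and Pfkp overlapped. In bleomycin lung Pkm reached 254 FPKM beside 270 FPKM for Aldoa, with overlapping ranges, and Eno1 at 148 FPKM passed Pgk1 at 108 FPKM. Slc2a1 (26.9) and Hif1a (20.8 FPKM) ranked above Pfkfb3 (14.8 FPKM), and Pfkp (4.27 FPKM) came last. The ranges of Slc2a1 and Hif1a, of Hif1a and Pfkfb3, and of Hk2 and Pfkp overlapped there.

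Within enzyme families, the balance moved as well as the level. Ldhb encodes the subunit that favours lactate use and is high in oxidative tissue. Ldha made up 59.4%, 67.6% and 75.3% of the Ldha and Ldhb FPKM in LNP libraries and 83.0%, 80.8% and 78.9% in bleomycin libraries, against 38.5%, 37.6% and 36.3% in control libraries. The LNP libraries lay between the other groups without any overlap (exact two-sided permutation p = 0.1 for each pair). Both genes contributed: Ldhb itself fell after bleomycin, with 156, 117 and 92.5 CPM in LNP libraries and 73.1, 73.4 and 70.9 CPM in bleomycin libraries, against 243, 316 and 245 CPM in control libraries (log2 fold change -1.89 ± 0.20 SE, adjusted p = 0.00025, edgeR). In LNP lung Ldhb was higher than in bleomycin lung (0.75 ± 0.19, adjusted p = 0.048) and lower than in control lung (-1.14 ± 0.19, adjusted p = 0.0072).

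Eno1 made up 88.5%, 90.9% and 52.3% of enolase FPKM in LNP libraries and 97.7%, 96.5% and 95.6% in bleomycin libraries, against 74.3%, 68.7% and 70.9% in control libraries, where the muscle gene Eno3 supplied most of the rest. LNP replicates 1 and 2 lay between the other groups and LNP replicate 3 below both, with Eno3 at 131 FPKM in that library. Computed on counts in place of FPKM, the bleomycin difference in this share was 10.8 points in place of 25.3 points, and that in the Ldha share was 34.1 in place of 43.5 points.

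The alpha subunits of HIF moved apart. Epas1 encodes HIF-2-alpha and is known to be abundant in lung endothelium. It fell after bleomycin, with 1683, 1510 and 1143 CPM in LNP libraries and 1526, 1541 and 1542 CPM in bleomycin libraries, against 3369, 2764 and 3073 CPM in control libraries (log2 fold change -1.0 ± 0.16 SE, adjusted p = 0.0019, edgeR). It was also lower in LNP than in control lung (-1.09 ± 0.16, adjusted p = 0.0047). Hif1a thus made up 3.36%, 4.63% and 4.67% of the summed FPKM of both subunits in LNP libraries and 11.0%, 7.73% and 5.21% in bleomycin libraries, against 1.51%, 0.80% and 1.57% in control libraries. The groups did not overlap (exact permutation p = 0.1 for each pair), and Epas1 remained the more abundant mRNA in all 9 libraries. Beside this fall, the sum of 10 endothelial markers was 3643 to 5361 CPM in LNP libraries, 5154 to 5390 CPM in bleomycin libraries and 6807 to 7656 CPM in control libraries. After bleomycin, where 33.7% of all genes were called, 5 of the 10 markers fell while 2 rose. Their part in the Epas1 difference was not tested.

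The other families were mixed. Hk2 held 16.1% to 30.6% of hexokinase FPKM in bleomycin libraries and 13.9% to 19.9% in control libraries, which overlapped. Pfkp held 14.6% to 21.9% of phosphofructokinase FPKM in bleomycin libraries and 16.8% to 19.0% in control libraries. Slc2a1 held 88.2%, 90.3% and 92.8% of its summed FPKM with Slc2a3, the glucose transporter GLUT3, in LNP libraries and 96.2%, 91.7% and 84.5% in bleomycin libraries, against 79.3%, 81.5% and 82.4% in control libraries, so that both treated groups lay above control without overlap (exact permutation p = 0.1 each) and overlapped one another. Pfkfb3 held 43.4% to 61.8% of the FPKM of its 4-gene family in LNP libraries and 57.0% to 69.5% in bleomycin libraries, against 51.5% to 54.9% in control libraries. Its bleomycin and control libraries did not overlap (exact permutation p = 0.1), and the LNP range overlapped both. Aldoa held over 98.5% of aldolase FPKM in every library.

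Promoter sequence was examined because HIF binds RCGTG. RefSeq windows of GRCm38.p6, from 250 bases before to 50 bases after a transcript start, were found for all 10 genes, 17 windows in all. The motifs ACGTG and GCGTG were searched on both strands, where their reverse complements read CACGT and CACGC. At least 1 match of either stood in 15 of the 17 windows, whereas 43.8% of 32851 windows of all genes had one. Each of the 10 genes had a match in a window, a count per gene that has no background beside it here. ACGTG alone stood in 10 of the 17 windows, beside 19.6% of all windows. Windows of 1 gene overlap in part and promoters of widely expressed genes are rich in CG, so these counts are a description and no test was made.

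Shown are the window with the most matches, Ldha, those of Pgk1 and Slc2a1, which rose after bleomycin, and that of Pfkp, which did not. They lie at chr7:46845554-46845853 (plus strand), chrX:106186850-106187149 (plus), chr4:119108495-119108794 (plus) and chr13:6648722-6649021 (minus), and capitals mark every match on either strand.
Ldha promoter: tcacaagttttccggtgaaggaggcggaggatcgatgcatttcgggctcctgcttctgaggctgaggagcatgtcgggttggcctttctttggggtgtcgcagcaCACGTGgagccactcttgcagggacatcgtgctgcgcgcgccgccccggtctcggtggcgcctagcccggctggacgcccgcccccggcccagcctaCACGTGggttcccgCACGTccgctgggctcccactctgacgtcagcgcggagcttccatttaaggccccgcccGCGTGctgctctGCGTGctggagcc
Pgk1 promoter: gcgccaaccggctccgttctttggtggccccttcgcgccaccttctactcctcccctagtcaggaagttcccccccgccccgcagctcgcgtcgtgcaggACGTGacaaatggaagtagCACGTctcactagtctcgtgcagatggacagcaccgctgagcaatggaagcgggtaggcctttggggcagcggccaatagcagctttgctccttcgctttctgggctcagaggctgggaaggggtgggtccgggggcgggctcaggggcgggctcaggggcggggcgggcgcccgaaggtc
Slc2a1 promoter: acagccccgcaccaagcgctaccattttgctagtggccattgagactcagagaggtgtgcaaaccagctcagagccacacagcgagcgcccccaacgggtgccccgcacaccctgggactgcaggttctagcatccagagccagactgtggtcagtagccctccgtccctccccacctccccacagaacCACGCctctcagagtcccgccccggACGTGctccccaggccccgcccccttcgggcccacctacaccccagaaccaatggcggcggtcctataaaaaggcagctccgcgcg
Pfkp promoter: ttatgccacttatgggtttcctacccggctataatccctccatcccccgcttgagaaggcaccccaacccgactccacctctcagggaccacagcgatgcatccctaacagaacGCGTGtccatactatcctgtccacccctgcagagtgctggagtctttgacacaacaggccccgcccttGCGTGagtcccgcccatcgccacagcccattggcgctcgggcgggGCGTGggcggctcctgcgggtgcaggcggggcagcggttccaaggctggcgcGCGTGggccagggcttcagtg

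The Ldha window shown held 5 matches of ACGTG and 2 of GCGTG, where the palindrome CACGTG counts on both strands. The other Ldha window, at chr7:46846832-46847131, had 2 matches of GCGTG and none of ACGTG. Of all windows, 0.301% had at least 7 matches. Pgk1 and Slc2a1 had 2 matches each, as 20.6% of all windows had 2 or more. Pfkp, whose level hardly moved, had 4 matches of GCGTG and none of ACGTG. Eno1, which rose the most, likewise had no ACGTG in any of its 3 windows and 2 matches of GCGTG in each.

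The other genes of glycolysis were mixed. Of 25 measured members of that list, 5 rose and 2 fell after bleomycin, near the shares of all genes called (33.7%) and called higher (15.2%). Their median log2 fold change was 0.15, beside -0.05 over all genes. Among them Pgam1, phosphoglycerate mutase, rose by 1.17 ± 0.17 on the log2 scale (SE, adjusted p = 0.0011), Gapdh by 1.72 ± 0.32 (adjusted p = 0.0036) and Hk1, the constitutive hexokinase, by 0.55 ± 0.13 (adjusted p = 0.012), all in edgeR's test. Gapdh stood at only 2.02 to 9.16 FPKM, and because near-identical copies of it occur across the genome its values are uncertain. Ldhb and Pfkfb2, a kinase related to Pfkfb3, were the genes that fell. Slc16a3, the lactate exporter MCT4 (1.10 ± 0.32, adjusted p = 0.024), and Slc16a1, the lactate carrier MCT1 (0.66 ± 0.19, adjusted p = 0.023), rose. The count of rises was 8 without LNP replicate 3, 3 without bleomycin replicate 2, and 2 without bleomycin replicate 1, control replicate 1 or control replicate 3. The count of falls was 6 without LNP replicate 3, and 1 without bleomycin replicate 1, bleomycin replicate 2 or control replicate 3.

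In LNP against bleomycin lung, 2 of the 25 rose, Ldhb and Aldoc, the aldolase of brain (0.71 ± 0.17, adjusted p = 0.040), and none fell. That is near the 6.16% of all genes called in that comparison. The count of rises was 0 when LNP replicate 1, LNP replicate 2, any bleomycin library, control replicate 1 or control replicate 3 was left out. Without LNP replicate 3 it was 3, with 2 genes lower, where 10.7% of all genes were called lower. In LNP against control lung, Gapdh (1.48 ± 0.32, adjusted p = 0.021) and Pgam1 (0.70 ± 0.17, adjusted p = 0.035) were higher and Ldhb was lower. Of all genes, 4.95% were called higher there. The higher count was 1 without LNP replicate 1, LNP replicate 2 or bleomycin replicate 2 and 0 without control replicate 1 or control replicate 3. Without LNP replicate 3 it was 3, against 6.41% of all genes, with 3 genes lower.

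Of 14 genes that pass pyruvate into mitochondria, 1 rose and 2 fell after bleomycin, no more than the 33.7% of all genes called, with a median log2 fold change of 0.11. Pdk3, a kinase that blocks pyruvate dehydrogenase, rose (0.56 ± 0.13, adjusted p = 0.0096), and Pdk2, another such kinase, fell (-0.97 ± 0.29, adjusted p = 0.029). Pdp2, a phosphatase that reactivates the complex, had 2.80, 5.06 and 3.76 CPM in bleomycin libraries, against 11.7, 12.2 and 13.9 CPM in control libraries (-1.70 ± 0.23, adjusted p = 0.00079). With 8.16, 7.56 and 6.55 CPM in LNP libraries it was the 1 gene of the 14 called higher than in bleomycin lung (0.94 ± 0.23, adjusted p = 0.045). Of all genes, 6.16% were called in that comparison. The Pdp2 call was lost when any 1 library other than LNP replicate 3 was left out. Without LNP replicate 3 there were 2 genes higher and 2 lower, where 10.7% of all genes were called lower. Of the falls after bleomycin, 1 was lost when bleomycin replicate 1, bleomycin replicate 2 or any 1 control library was left out, and without LNP replicate 3 there were 3 rises and 3 falls. Pdk1, the kinase most often named as a HIF target, was not called after bleomycin, with 30.5, 35.9 and 33.7 CPM in bleomycin libraries, against 28.8, 29.6 and 30.2 CPM in control libraries.

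Among 12 genes of HIF subunits and oxygen sensing, 1 rose and 3 fell after bleomycin, where 33.7% of all genes were called and 15.2% called higher; with LNP replicate 3 left out, 2 rose and 4 fell. Besides Epas1, the hydroxylase gene Egln1 (-0.47 ± 0.12, adjusted p = 0.015) and Cited2, a negative regulator of HIF (-0.60 ± 0.17, adjusted p = 0.021), fell. Arnt2, a beta subunit, rose (1.29 ± 0.35, adjusted p = 0.019) at a level of at most 2.46 CPM. The Arnt2 call was lost without bleomycin replicate 1, bleomycin replicate 2 or control replicate 3, and without bleomycin replicate 2 only 1 of the falls was called. Between LNP and bleomycin lung, edgeR and DESeq2 each called 0 of the 12, where edgeR called 6.16% of all genes. At an unadjusted p below 0.05, edgeR had 0 of the 12 and DESeq2 had 1, again with no share of all genes given. Leaving out LNP replicate 3, 2 of the 12 were called lower in LNP lung, against 10.7% of all genes.

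The list of 26 HIF targets outside glycolysis holds secreted and stress genes. After bleomycin 10 rose and 1 fell, where 33.7% of all genes were called and 15.2% called higher. The median log2 fold change was 0.57, beside -0.05 over all genes tested. The rises numbered 15 without LNP replicate 3, and the share of all genes called higher in that fit is not given here. They numbered 8 without bleomycin replicate 1, bleomycin replicate 2 or control replicate 3. Ankrd37, a gene induced by hypoxia, had 31.9, 38.1 and 34.4 CPM in bleomycin libraries, against 2.61, 3.57 and 2.72 CPM in control libraries (log2 fold change 3.55 ± 0.41 SE, adjusted p = 0.00039, edgeR). Pgf, placental growth factor, rose by 2.61 ± 0.29 (adjusted p = 0.00031) and Loxl2, which cross-links collagen, by 1.85 ± 0.29 (adjusted p = 0.0015). Several of these genes are also induced by other signals in fibrosis.

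Other classical targets on the same list were not called higher. Vegfa, the vascular growth factor, had 541, 470 and 416 CPM in bleomycin libraries, against 502, 485 and 472 CPM in control libraries. The carbonic anhydrase gene Car9 was at no more than 2.21 CPM in bleomycin libraries and 1.74 CPM in control libraries. P4ha1, a collagen prolyl hydroxylase, was the gene that fell (-0.84 ± 0.23, adjusted p = 0.021), and it lost its call when any 1 bleomycin library, control replicate 1 or control replicate 2 was left out. Vegfa, Car9 and Pdk1 were picked for mention after their values were seen.

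Between LNP and bleomycin lung, 4 of the 26 targets were lower and none higher, where 1.87% of all genes were called lower. The median was -0.47, beside 0.04 over all genes tested. Pgf had 12.1, 12.6 and 26.1 CPM in LNP libraries, against 40.8, 41.1 and 42.6 CPM in bleomycin libraries (-1.29 ± 0.27, adjusted p = 0.027). Hmox1, haem oxygenase (-2.87 ± 0.73, adjusted p = 0.049), and P4ha2 (-0.54 ± 0.13, adjusted p = 0.043) were also lower. The Hmox1 level spread widely over the bleomycin libraries, with values given below. Without LNP replicate 3, 14 targets were lower, against 10.7% of all genes, and 1 was higher. The count of lower targets was 0 without LNP replicate 1, LNP replicate 2, bleomycin replicate 1 or bleomycin replicate 2. It was 2 without bleomycin replicate 3 or control replicate 1, and 1 without control replicate 3. Of the 26 targets, 4 were higher in LNP than in control lung, against 4.95% of all genes. Among them were Ankrd37, Pgf and Loxl2, with log2 fold changes of 2.80 ± 0.40, 1.32 ± 0.28 and 1.12 ± 0.28 and adjusted p-values of 0.0038, 0.019 and 0.040 in edgeR's test. The 4 calls were 2 without control replicate 2 and 1 without control replicate 1 or control replicate 3. Without LNP replicate 3 there were 4 higher, against 6.41% of all genes, and 3 lower.

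**Figure D4:**
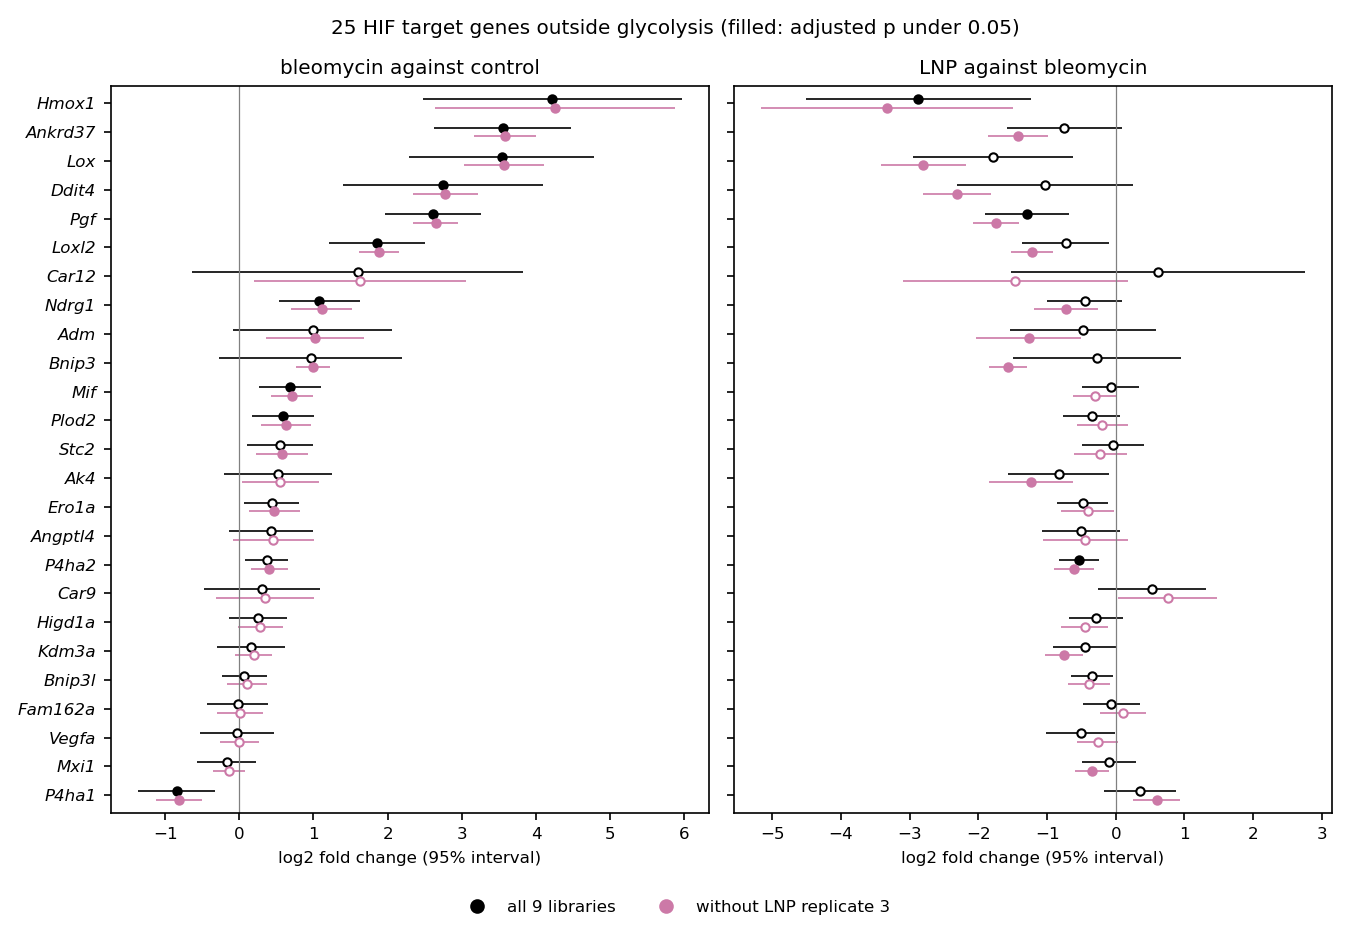
Log2 fold change with its 95% interval of 25 of the 26 HIF target genes outside glycolysis, bleomycin against control on the left and LNP against bleomycin on the right, ordered by the first comparison. Black symbols are the fit of all 9 libraries and pink symbols the fit without LNP replicate 3; filled symbols passed an adjusted p of 0.05, 10 of 25 in black in the bleomycin panel and 3 of 25 in black in the LNP panel.

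Within the bleomycin group, replicate 1 was the highest and replicate 3 the lowest for each of the 10 genes in TMM-scaled CPM. In FPKM that order held for all but Aldoa, highest in replicate 3, and Pfkp, highest in replicate 2. The spread was wide for Hk2, Slc2a1 and Hif1a and narrow for Aldoa and Eno1. The sum of 7 erythroid markers followed the same order, with 16724, 7505 and 1080 CPM, and so did Hmox1, with 1518, 740 and 111 CPM. Neutrophil markers ran the other way, with 362, 603 and 795 CPM. The part of blood or neutrophil RNA in the levels of the 10 genes was not tested.

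Across all 9 libraries, Pgk1 and Ldha were the pair most alike, with a root mean square difference of 0.11 between their centred log2 CPM. Slc2a1, Hif1a and Eno1 each came closest to Pkm, at 0.27, 0.58 and 0.25, and Hk2 came closest to Slc2a1, at 0.29. Pfkp lay farthest from the mean profile of the 10, at 0.60, and Pgk1 closest, at 0.13. The genes outside the set that came nearest to that mean profile were Trmt6 (0.08), Slc6a8 (0.09), Zwint (0.09), Fam83h (0.10) and Lyset (0.10). The 9 libraries of 3 groups underlie each of these values, so they describe a shared ordering of groups and nothing more.

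Cell type markers also differed between bleomycin and control lung, where 33.7% of all genes were called and 15.2% called higher. The sum of 15 monocyte-derived macrophage markers was 9986 to 10131 CPM in bleomycin libraries, against 1058 to 1364 CPM in control libraries, with 12 of 15 called higher, 1 lower and none at 0. All 9 markers of transitional epithelium were called higher, and their sum was 3719 to 5301 CPM in bleomycin libraries, against 1354 to 1899 CPM in control libraries. The 8 alveolar type 2 markers went the other way, with 6 called lower and a sum of 8587 to 10084 CPM in bleomycin libraries, against 23848 to 32063 CPM in control libraries. LNP replicates 1 and 2 lay between those groups for all 3 lists. LNP replicate 3 lay above every bleomycin library for the macrophage markers, at 11436 CPM, and below every one for the alveolar type 2 markers, at 7441 CPM. The part of these cell types in the 6 called rises was not tested.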

How the data were processed

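From poly(A) RNA of whole lung, paired-end libraries were prepared with dUTP marking of strand, as the labels' protocols state. Tools named without versions, per the submitters' processing notes, were fastp, StringTie and edgeR; no source used here gives the aligner, genome build or counting settings. Per the file headers, the authors deposited counts (whole numbers) for genes and transcripts, with FPKM for genes. Use of strand in that counting is likewise not given, so genes that overlap, lie antisense or have near-identical copies carry uncertain values.

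The main test was the quasi-likelihood F test of edgeR (version 4.0.16, R 4.3.3) on deposited counts, with 1 fit over all 9 libraries, scaling by TMM, filterByExpr (20794 genes kept) and Benjamini-Hochberg adjustment over all of them, called at an adjusted p under 0.05. Where no tool stands beside a gene's adjusted p, it is from edgeR. CPM use TMM-scaled library sizes. FPKM served for shares between genes and for order. Shares were compared by exact two-sided permutation tests, which cannot go below p = 0.1 with 3 against 3 libraries. Likeness used centred log2 CPM with a prior count of 2.

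The 10 genes and the gene lists were chosen with earlier results of these data known. The text names all 10 genes, their isoenzymes, per list up to 4 called genes with the smallest p, the nearest genes by likeness with a mean of at least 5 CPM, and a few other genes said to be chosen after their values were seen, Eno3, Pfkm and Slc16a carriers among them. One gene of the HIF target list is counted but not reported by name here. Replicates were compared before averaging, and none agreed within sampling noise.

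Alternatives were DESeq2 1.42.0, 2 other scalings, no count filter, a fit of the 2 compared groups alone, replicate number as block, a minimum fold of 1.5, limma 3.58.1 on log2(FPKM + 1) and log2(FPKM + 0.1) with a mean FPKM of at least 0.5, limma on log2(FPKM + 1) with no filter, and each library left out in turn. The fits were tested on simulated data with the same spread for every gene and no deviating library. That test therefore does not cover a library like LNP replicate 3. Equal replicate numbers were not treated as a pairing, since the labels state none and the deviations showed none. Promoters came from a RefSeq table of GRCm38.p6 and exons from the GENCODE annotation of GRCm38; coordinates of the deposited table were not converted.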

Additional observations from a re-analysis of the deposited data

How the results depend on the processing

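The 6 rises after bleomycin held in all 19 alternative settings, and the count of genes called higher was 6 to 8. The counts for LNP lung were less stable. Against bleomycin, 0 of the 10 genes were called lower with all libraries, 4 by DESeq2, and 0 to 6 when each library was left out in turn, with 6 without LNP replicate 3 and 1 without control replicate 2. Against control, 2 were called higher, and the count was 4 by DESeq2, with library-size scaling and with limma on log2(FPKM + 1) or log2(FPKM + 0.1), 1 without the count filter, and 0 with only the 2 groups compared or a minimum fold of 1.5. It was 0 to 3 when each library was left out. With the replicate number as a block, 6, 0 and 1 genes were called for bleomycin against control, LNP against bleomycin (lower) and LNP against control. Same-numbered libraries did not deviate together (correlations of -0.02 to 0.04). That check showed no pairing, but so few libraries a group cannot exclude one. Without LNP replicate 3 the sign turned for 3 uncalled differences: Aldoa in LNP against bleomycin (log2 fold change -0.29, and -0.29 to 0.70 over the libraries left out), Hk2 in LNP against control (-0.13, range -0.13 to 0.72) and Pfkp in LNP against control (0.019, range -0.19 to 0.019). The cause was not tested. A fit without 1 library assumes that a group of 2 varies like the others. Depth was ample for all 10 genes, with at least 1103 counts each in every library; the number of libraries limits the precision.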
